A study of Mus musculus with 8 samples.

Results

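Gpr37, Gpr37l1 and Psap were examined here, 3 genes out of the 23284 symbols counted in RNA of the embryonic mouse cortex. They were selected by symbol, and the set was chosen because Gpr37 is higher in the libraries labelled ErbB4 KO. The comparison of Gpr37 between genotypes is therefore a description and carries no test. Gpr37l1 and Psap were included as the closest relative of Gpr37 and as the precursor of its proposed ligand. The libraries came from dorsal cortex of C57BL/6 embryos at E15.5, with 4 labelled WT and 4 labelled ErbB4 KO (genotype ErbB4 -/-). ErbB4 is a receptor tyrosine kinase for neuregulins. ErbB4 KO mice lack it outside the heart, where a transgene under the alpha-MHC promoter restores it so that the embryos survive, and both lines were kept as homozygous colonies. Dissection left out the ganglionic eminences and the meninges, and the comparison asks which cortical transcripts change when ErbB4 is lost.

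GPR37 and GPR37L1 are G protein-coupled receptors whose nearest relatives bind endothelins and bombesin-like peptides. GPR37 is also known as the parkin-associated endothelin receptor-like receptor, because it folds poorly and is a substrate of the ubiquitin ligase parkin, and in the mature brain it is prominent in oligodendrocytes. GPR37L1 is typical of astrocytes. Prosaposin, the product of Psap, is cut in the lysosome into saposins A to D, small proteins that help hydrolases to reach their sphingolipid substrates. Its secreted uncut form has been proposed as a ligand of both receptors, a pairing that is still debated.

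In NCBIM37 (mm9), the build to which the reads were mapped, Gpr37 lies on the minus strand of chromosome 6 from 25616894 to 25640729, with 2 coding transcripts that share a start. Gpr37l1 lies on the minus strand of chromosome 1 from 137056811 to 137064258, with 1 transcript, and Psap lies on the plus strand of chromosome 10 from 59740375 to 59765345, with 3 transcripts. In the annotation used here no other gene overlaps any of them, so by it no antisense gene would share reads counted without strand. The annotation behind the deposited counts is not given in the sources used here. The 250 bases before each annotated start are shown because the members differ so widely in level. They were read from the NCBIM37 genome, 5′ to 3′ on the strand of the gene, with every CG dinucleotide in capitals.
Gpr37, chr6:25640730-25640979, minus strand: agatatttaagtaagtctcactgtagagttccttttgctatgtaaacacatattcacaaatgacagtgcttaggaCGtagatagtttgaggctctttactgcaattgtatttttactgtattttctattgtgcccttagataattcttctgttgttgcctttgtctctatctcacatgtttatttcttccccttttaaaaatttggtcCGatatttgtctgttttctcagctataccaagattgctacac
Gpr37l1, chr1:137064259-137064508, minus strand: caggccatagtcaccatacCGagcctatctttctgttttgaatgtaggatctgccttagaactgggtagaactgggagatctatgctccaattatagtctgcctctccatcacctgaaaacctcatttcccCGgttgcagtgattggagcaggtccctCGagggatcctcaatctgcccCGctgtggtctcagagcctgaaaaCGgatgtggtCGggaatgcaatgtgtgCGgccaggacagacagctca
Psap, chr10:59740125-59740374, plus strand: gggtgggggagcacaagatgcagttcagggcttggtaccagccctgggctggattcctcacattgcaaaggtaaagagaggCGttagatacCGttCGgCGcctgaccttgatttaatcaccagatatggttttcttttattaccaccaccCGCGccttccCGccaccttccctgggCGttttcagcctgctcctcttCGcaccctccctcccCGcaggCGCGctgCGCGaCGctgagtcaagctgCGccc
The stretch of Psap holds 16 CG dinucleotides, that of Gpr37l1 holds 7 and that of Gpr37 holds 2, against a median of 8 in the same window of 22375 protein-coding genes. RefSeq places the start of Gpr37 749 bases further downstream, and the 250 bases before that start hold 16 CG. For Gpr37l1 the starts coincide, and for Psap the first RefSeq start is 1 base away. Motifs were searched on both strands of the printed windows. The GC box GGGCGG, present in 39.6% of all windows, is in none of the 3, and the window before the RefSeq start of Gpr37 holds 1. The TATA box, searched as TATAAA and present in 12.3% of all windows, is also in none of them. Nor is TCACGTGA, a core that recurs before lysosomal genes, which 0.916% of all windows hold.

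Between 28205703 and 48871480 reads were counted per library. Neurod6 and Tbr1, which mark cortical excitatory neurons, stood at means of 977 and 427 CPM (read counts scaled to library size after TMM normalization) in WT libraries, as the labelled tissue would have them. The targeted gene Erbb4 was not lower in the libraries labelled ErbB4 KO, at 20.7 to 24.6 CPM against 8.99 to 25.3 CPM in WT libraries (log2 fold change 0.28, SE 0.23, adjusted p 0.812 by edgeR), so all genotypes here are those of the labels and every direction below rests on them. The lowest of these values is that of WT replicate 1, and without it the log2 fold change of Erbb4 was 0.06 (SE 0.11). The same library stood apart from the rest, with a score of 38.9 on the first principal component against -15.5 to 6.07 elsewhere. Xist, expressed from the inactive X chromosome of females, was at 983 to 1687 CPM in WT replicates 1 to 3 and at 2.70 to 3.82 CPM in WT replicate 4 and the 4 ErbB4 KO libraries, so sex and genotype overlap in a single WT library. ErbB4 KO replicate 3 alone held abundant Ttr, a choroid plexus transcript, at 572 CPM against 0.571 to 8.76 CPM in the others.

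Gpr37 was higher in the libraries labelled ErbB4 KO than in WT libraries, the pattern for which it was chosen. WT replicates 1 to 4 had 2.71, 3.24, 2.92 and 3.82 CPM, from 76, 101, 112 and 134 reads. ErbB4 KO replicates 1 to 4 had 5.22, 5.06, 5.25 and 4.57 CPM, from 257, 176, 205 and 144 reads. All ErbB4 KO libraries lay above all WT libraries, and the lowest of them exceeded the highest WT library by 0.757 CPM. Of the 14696 genes that passed the filter on low counts, 273 (1.86%) showed this order of the groups, and 3.34% had groups without overlap in either direction. The means were 5.02 ± 0.312 CPM (SD, n = 4) in ErbB4 KO and 3.17 ± 0.482 CPM (SD, n = 4) in WT libraries, a ratio of 1.58. In the fit of edgeR over all genes the log2 fold change was 0.65 (SE 0.13). The spread within WT libraries was the larger, with a coefficient of variation of 15.2% against 6.21% in ErbB4 KO libraries.

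WT replicate 4, the only WT library with low Xist, was the highest of the WT libraries in Gpr37. Set against that library alone, the ErbB4 KO mean was 1.32 times as high and the log2 fold change was 0.39 (SE 0.18). That comparison was chosen after seeing the data, and its spread comes from the 4 ErbB4 KO libraries only, with the single WT library assumed to vary as they do. With the log2 CPM of Xist as a covariate it was 0.40 (SE 0.20). Both values are lower than the one from all libraries by over 1.5 times, and WT replicates 1 to 3 have no ErbB4 KO library of the same sex pattern to be set against. Without WT replicate 1 the log2 fold change was 0.59, without WT replicate 4 it was 0.75, and without the Ttr-rich ErbB4 KO replicate 3 it was 0.63.

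**Figure D1:**
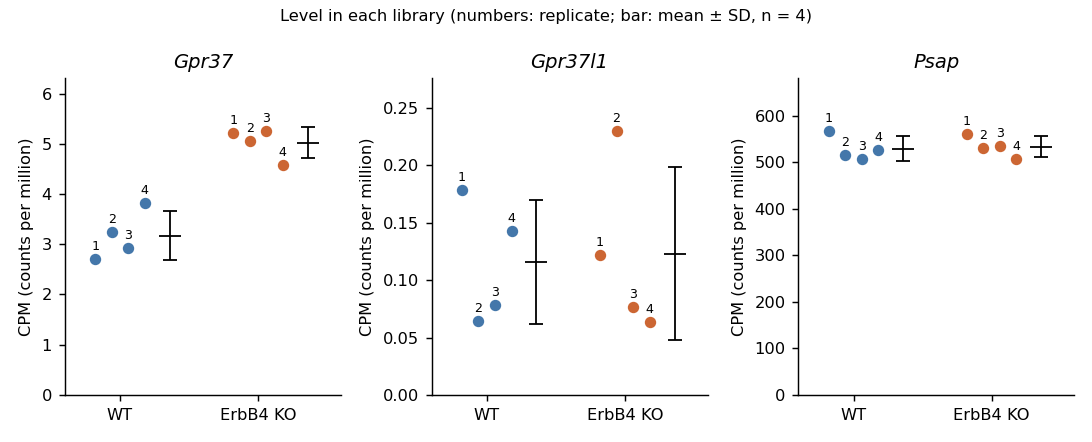
CPM of Gpr37, Gpr37l1 and Psap in each library, with a linear axis from 0 for each gene; points are libraries numbered by replicate, and the bar beside them is the mean ± SD (n = 4). In Gpr37 all ErbB4 KO points (4.57 to 5.25 CPM) lie above all WT points (2.71 to 3.82 CPM), while in Gpr37l1 and Psap the genotypes overlap.

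**Figure D2:**
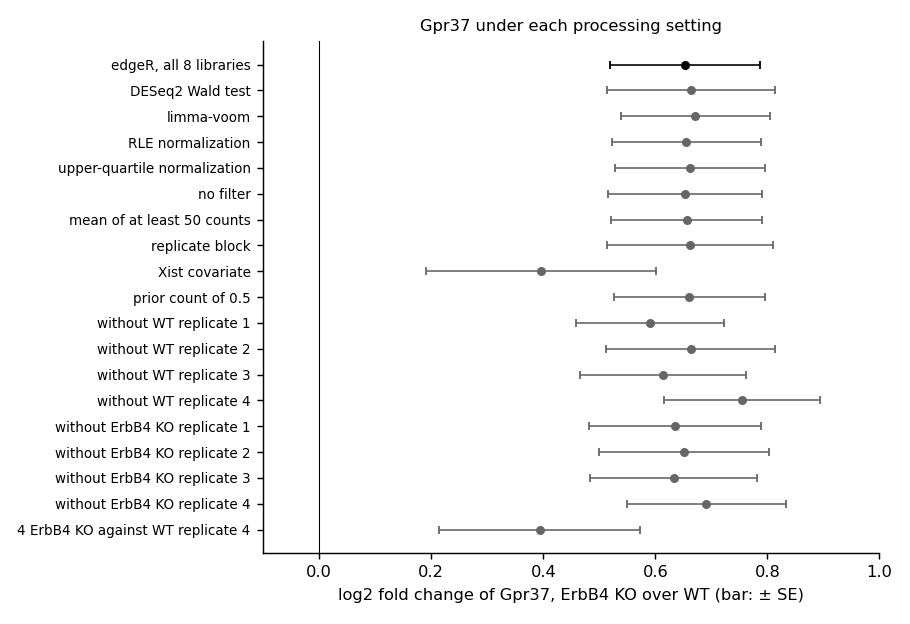
Log2 fold change of Gpr37, ErbB4 KO over WT, with its SE, under each processing setting. Values lie between 0.59 and 0.75 except with Xist as a covariate (0.40) and against WT replicate 4 alone (0.39).

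In bulk RNA, more cells of a type and more RNA per cell cannot be told apart, so markers of the cells known for Gpr37 were read beside it. Of 9 oligodendrocyte lineage genes, all passed the filter, 8 had a positive log2 fold change and 0 had an adjusted p under 0.05 in edgeR's test or in DESeq2. The median log2 fold change was 0.11, against -0.0021 over all tested genes. At an unadjusted p under 0.05, 2 were higher in ErbB4 KO libraries, where 3.0% of all genes were. These were Sox10, a transcription factor of the lineage, and Pdgfra, the growth factor receptor of oligodendrocyte precursors. Without WT replicate 1, 7 of the 9 had a positive log2 fold change, their median was 0.05, and 1 was higher at an unadjusted p under 0.05.

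Sox10 had 3.17, 3.79, 2.29 and 1.99 CPM in WT replicates 1 to 4 and 4.45, 4.62, 4.15 and 3.88 CPM in ErbB4 KO replicates 1 to 4. All ErbB4 KO libraries lay above all WT libraries, as in 1.86% of all tested genes, and WT replicate 4 was the lowest library. The other 8 genes of the list overlapped between genotypes, and outside it Pdgfrb, a receptor gene of pericytes, was the only marker with the same order (17.9 to 19.7 CPM in WT and 19.8 to 24.2 CPM in ErbB4 KO libraries). Pdgfra had 12.9, 17.2, 16.4 and 13.8 CPM in WT and 19.4, 21.3, 19.7 and 14.3 CPM in ErbB4 KO libraries, where ErbB4 KO replicate 4 lay among the WT libraries. The log2 fold changes of Sox10 and Pdgfra were 0.60 (SE 0.19) and 0.30 (SE 0.13). With Xist as a covariate they were 1.07 (SE 0.30) and 0.45 (SE 0.22), and against WT replicate 4 alone, the lowest library in Sox10, they were 1.08 and 0.43. Olig1 and Olig2, which define the progenitors, differed by 0.11 (SE 0.13) and 0.02 (SE 0.18) on the log2 scale, or by 0.16 and 0.02 without WT replicate 1. The log2 fold changes of myelin genes were 0.02 (SE 0.09) for Mbp, 0.02 (SE 0.09) for Cnp, 0.18 (SE 0.17) for Mog and -0.24 (SE 0.30) for Mag, and without WT replicate 1 they were -0.07, 0.02, 0.05 and -0.03. None of the 9 was at 0, and their summed level was 100.1 to 123 CPM in WT and 108 to 128 CPM in ErbB4 KO libraries. The part of these cells in the level of Gpr37 was not tested.

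**Figure D3:**
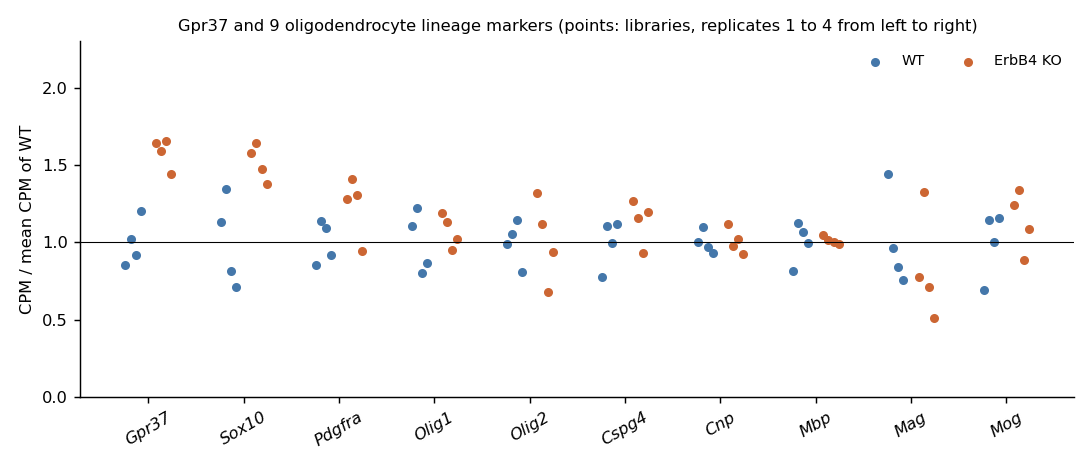
CPM of Gpr37 and 9 oligodendrocyte lineage markers in each library, divided by the mean CPM of the WT libraries (line at 1); points are libraries, replicates 1 to 4 from left to right. The genotypes separate in Gpr37 and Sox10 and overlap in the other 8 genes.

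The other marker lists were read in the same way. Of 60 marker genes tested in 9 lists, 0 were called at an adjusted p under 0.05 by edgeR, DESeq2 or limma-voom, where edgeR called 0.0272% of all tested genes. Without ErbB4 KO replicate 4, edgeR called 1 marker, the embryonic globin Hba-x. At an unadjusted p under 0.05, 6 markers were higher and 6 lower, beside 3.0% and 2.52% of all tested genes. Of 8 radial glia genes, 7 had a negative log2 fold change, and 4 of these had an unadjusted p under 0.05, where 2.52% of all genes were lower at that limit. Their median was -0.21, with 102 ± 8.51 against 84.4 ± 8.22 CPM (SD, n = 4) in WT and ErbB4 KO libraries for Pax6, a transcription factor of cortical progenitors. Without WT replicate 1, 6 radial glia genes were negative and 2 positive, with a median of -0.14. At an unadjusted p under 0.05 in edgeR's test, 3 were then lower and 1 higher. The log2 fold change of Pax6 was -0.27 (SE 0.08), or -0.22 (SE 0.07) without that library. The astrocyte genes had a median of -0.0055 (-0.05 without WT replicate 1), and S100b, an astrocyte calcium-binding gene, did not pass the filter. Gfap, the intermediate filament of astrocytes, had 16 to 29 reads in WT and 27 to 93 reads in ErbB4 KO libraries. In CPM these were 0.571 to 0.930 and 0.858 to 2.07, so the groups overlapped. Its log2 fold change was 0.99 (SE 0.28), or 0.90 (SE 0.31) without WT replicate 1. With Xist as a covariate it was 0.89 (SE 0.49), and against WT replicate 4 alone it was 0.89. Microglia, which are rich in lysosomal transcripts, had a median of 0.09 and summed levels of 38.8 to 44.6 CPM in WT and 41.6 to 46.8 CPM in ErbB4 KO libraries. Of 6 tested meninges and choroid plexus genes, 5 had a positive log2 fold change (median 0.33, or 0.41 without WT replicate 1). At an unadjusted p under 0.05, 2 of them were higher, or 1 without WT replicate 1. Of 4 tested red blood cell genes, 3 had a negative log2 fold change (median -0.67), 2 of them at an unadjusted p under 0.05. Without WT replicate 1, 2 were negative and the median was -0.54. The lowest log2 fold change among markers was that of the embryonic globin Hbb-y (-1.71, SE 0.45) and the highest that of Ttr (4.81, SE 1.64), for which ErbB4 KO replicate 3 alone was high. The part of these cells in the levels of the members was likewise not tested.

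Gpr37l1 was barely detected at this stage. WT replicates 1 to 4 had 5, 2, 3 and 5 reads, and ErbB4 KO replicates 1 to 4 had 6, 8, 3 and 2 reads. The groups overlapped fully, and the gene did not pass the filter on low counts, so it has no value in edgeR's fit over all genes. The summed counts were 15 of 132717147 reads in WT and 19 of 154496173 in ErbB4 KO libraries, or 0.113 CPM (exact Poisson interval at 95%, 0.0633 to 0.186) and 0.123 CPM (0.074 to 0.192). The ratio of ErbB4 KO to WT was 1.09, with an interval of 0.524 to 2.3. These intervals cover counting error only. The difference of the mean log2 CPM was 0.03 (exact two-sided permutation test over 70 assignments, p = 1, where the smallest possible is 0.0286). A change as large as that of Gpr37 lies within the interval of the ratio and was not detectable at this depth.

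Psap was abundant, with no difference between genotypes larger than the spread between libraries. WT replicates 1 to 4 had 567, 515, 507 and 527 CPM, and ErbB4 KO replicates 1 to 4 had 562, 530, 534 and 507 CPM, from 15893 to 27667 reads per library. The genotypes overlapped fully, and WT replicate 1 was the highest and ErbB4 KO replicate 4 the lowest of the 8 libraries. The means were 529 ± 26.6 CPM (SD, n = 4) in WT and 533 ± 22.5 CPM (SD, n = 4) in ErbB4 KO libraries. The log2 fold change was 0.01 (SE 0.06, adjusted p = 0.971 in edgeR's quasi-likelihood test), with a 95% interval of -0.11 to 0.13. With Xist as a covariate the log2 fold change was 0.0041, with a larger SE of 0.09. The exact two-sided permutation test gave p = 0.83. With 15893 reads or more behind each value, counting error is small. The upper bound of 0.13 stands beside the 0.65 described for Gpr37, both from the fit without a covariate. The direction of Psap changed with single libraries left out, between -0.015 without ErbB4 KO replicate 1 and 0.047 without WT replicate 1.

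Levels were compared between the members per kilobase of the union of annotated exons, which is 3940 nucleotides for Gpr37, 2269 for Gpr37l1 and 2729 for Psap. Psap stood at 194 ± 9.73 CPM per kilobase (SD, n = 4) in WT and 195 ± 8.25 (SD, n = 4) in ErbB4 KO libraries, and ranked 118th of 21709 genes with a length. Gpr37 stood at 0.805 ± 0.122 and 1.28 ± 0.0792 CPM per kilobase, and 46.1% of genes were lower. Gpr37l1 stood at 0.051 ± 0.0237 and 0.0542 ± 0.0332 CPM per kilobase. The order Psap, Gpr37, Gpr37l1 held in each of the 8 libraries. Within a library, the level of Psap per kilobase was 147 to 302 times that of Gpr37, and that of Gpr37 was 8.75 to 41.5 times that of Gpr37l1. The last range is wide because the denominator rests on 2 to 8 reads.

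Other genes of the pathway were taken from 6 lists of 61 genes, of which 57 passed the filter. None had an adjusted p under 0.05 in edgeR's test, where 4 of all 14696 genes did (0.0272%), or in DESeq2 or limma-voom. At an unadjusted p under 0.05, 2 were higher and 0 lower in ErbB4 KO libraries, a share of 3.51% beside 5.53% of all tested genes (2.52% lower). In all, 41 had a positive and 16 a negative log2 fold change, with a median of 0.04. Without WT replicate 1 these counts were 39 and 18, with a median of 0.03.

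The prosaposin sorting and processing list holds receptors that carry prosaposin to the lysosome and proteases that cut it. Of its 12 genes 11 were tested, 8 with a positive and 3 with a negative log2 fold change (median 0.03, or 0.0083 with 7 and 4 without WT replicate 1). Sort1, which encodes the sorting receptor sortilin, had 261 ± 29.9 CPM (SD, n = 4) in WT and 276 ± 9.75 CPM (SD, n = 4) in ErbB4 KO libraries. Grn, encoding progranulin, a binding partner of prosaposin, had 45.7 ± 6.17 and 41.8 ± 2.39 CPM, a log2 fold change of -0.13 (SE 0.09). Ctsd, encoding the protease cathepsin D, had -0.07 (SE 0.08), and Lrp1, encoding an endocytic receptor, had 0.13 (SE 0.10). Without WT replicate 1 the log2 fold changes of Sort1, Grn, Ctsd and Lrp1 were 0.0050, -0.03, -0.01 and 0.03. Psapl1, a paralogue of Psap, had 0 of 287213320 reads over the 8 libraries, which allows a level of up to 0.0104 CPM at 3 counts.

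The 10 lysosomal genes that act with saposins were all tested, with 7 positive and 3 negative log2 fold changes (median 0.03, or 0.08 without WT replicate 1). Gm2a, the GM2 ganglioside activator, a sphingolipid cofactor like the saposins, had 21.4, 24.5, 21.2 and 23.0 CPM in WT replicates 1 to 4 and 25, 26.7, 25 and 24.8 CPM in ErbB4 KO replicates 1 to 4. It was the only gene of the 57 in which all ErbB4 KO libraries lay above all WT libraries, which 1.86% of all tested genes did. Its log2 fold change was 0.17 (SE 0.07), and edgeR gave it an adjusted p = 0.81. Galc, the galactosylceramidase that saposin A assists, differed by a log2 fold change of -0.05 (SE 0.07), or -0.08 without WT replicate 1.

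Among the relatives of the receptors and their peptides, 10 of 12 genes were tested, 9 with a positive log2 fold change (median 0.14). With WT replicate 1 left out, 7 were positive and the median was 0.07. Ednrb, the endothelin B receptor, had 61.6 ± 4.24 CPM (SD, n = 4) in WT and 63.8 ± 3.5 CPM (SD, n = 4) in ErbB4 KO libraries. Nmb, the peptide neuromedin B, gave a log2 fold change of 0.27 (SE 0.16), and Ece2, an endothelin-converting enzyme, had -0.02 (SE 0.09).

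The 3 proteases linked to cleavage of the receptor ectodomains were all tested, 2 with a positive and 1 with a negative log2 fold change. Adam10 had 186 ± 15.1 and 194 ± 3.24 CPM (SD, n = 4) in WT and ErbB4 KO libraries, with a log2 fold change of 0.07 (SE 0.06). Furin, a proprotein convertase, had 0.08 (SE 0.07), and Adam17 had -0.06 (SE 0.07). Adam10 was at 0.03 and Adam17 at -0.08 without WT replicate 1. Of 11 protein partners and quality control genes 10 were tested, 6 with a positive and 4 with a negative log2 fold change (median 0.02, or 0.0052 with 5 and 5 without WT replicate 1). Park2, which encodes parkin, had 1.87 ± 0.582 CPM (SD, n = 4) in WT and 1.7 ± 0.177 CPM (SD, n = 4) in ErbB4 KO libraries, a log2 fold change of -0.14 (SE 0.22). Stub1, a chaperone-associated ubiquitin ligase, had -0.14 (SE 0.10). Lrp6, a Wnt co-receptor that GPR37 helps to mature, had 0.07 (SE 0.10), and Ptch1, the Hedgehog receptor reported to bind GPR37L1, had 0.15 (SE 0.14). Without WT replicate 1 the log2 fold changes of Park2, Stub1, Lrp6 and Ptch1 were -0.32 (SE 0.18), -0.05, -0.03 and 0.01, so that of Lrp6 changed direction.

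All 13 genes of Gi and Go signalling, the route proposed for both receptors, were tested, 9 with a positive and 4 with a negative log2 fold change (median 0.03). With WT replicate 1 left out, 11 were positive and 2 negative (median 0.03). At an unadjusted p under 0.05 in edgeR's test, 2 were then higher, against 1 with all libraries. Adcy1, a calcium-stimulated adenylyl cyclase, had 114, 184, 157 and 168 CPM in WT replicates 1 to 4 and 212, 231, 221 and 184 CPM in ErbB4 KO replicates 1 to 4. ErbB4 KO replicate 4 was level with WT replicate 2, and the groups overlapped by that margin. Its log2 fold change was 0.44 (SE 0.12), the largest in the lists, and edgeR gave it an adjusted p = 0.81 as well. Without WT replicate 1, its lowest library, the log2 fold change of Adcy1 was 0.32 (SE 0.08). Gnai2, an inhibitory G protein subunit, had -0.07 (SE 0.06), and Gnb2, a beta subunit, had -0.09 (SE 0.07), and without WT replicate 1 they were at -0.02 and -0.02.

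**Figure D4:**
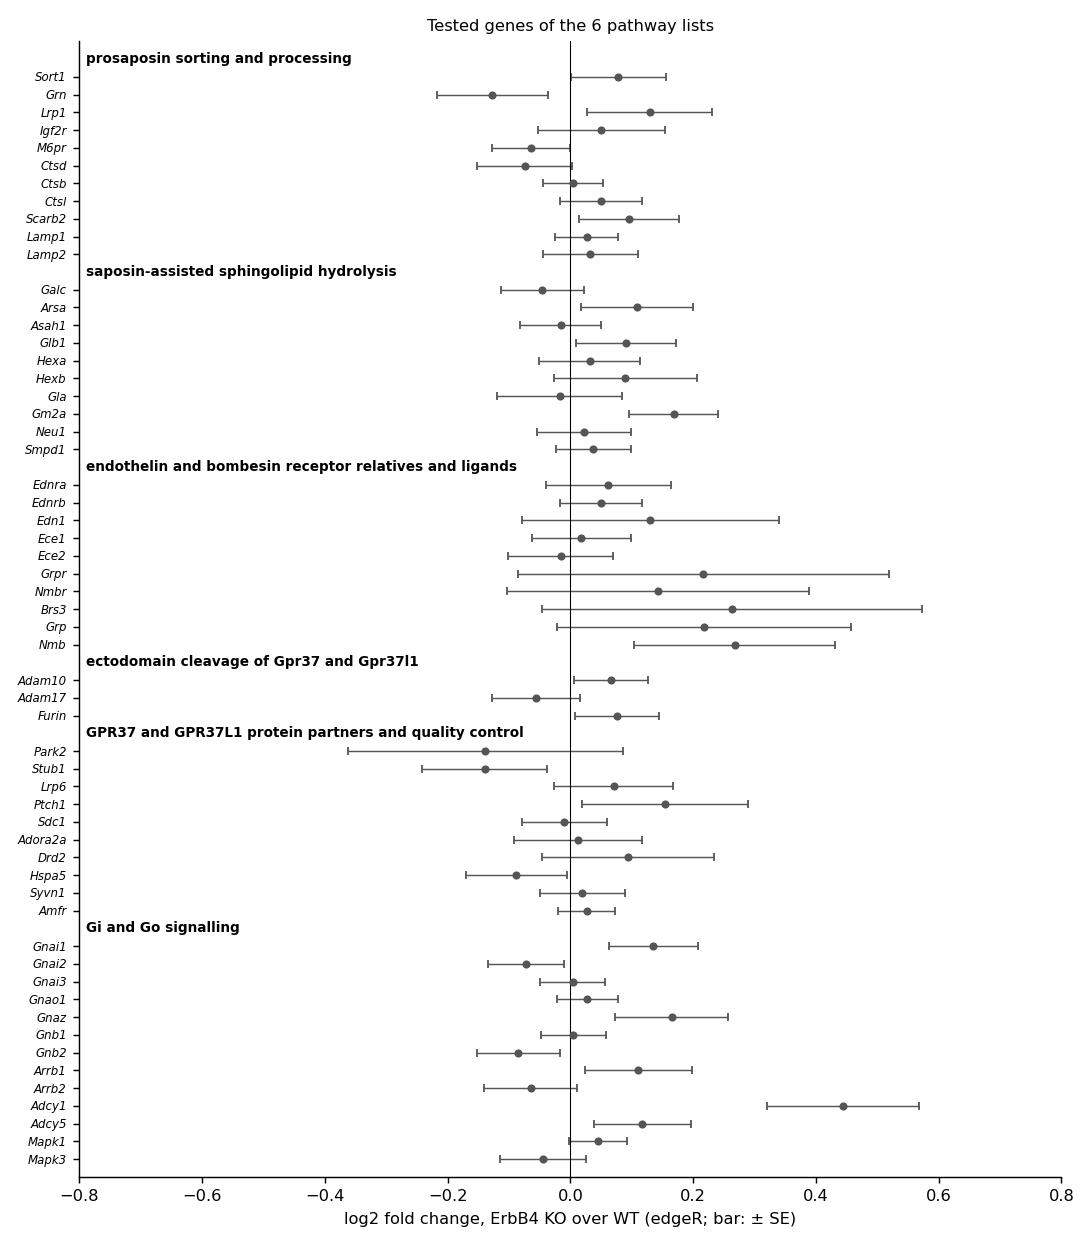
Log2 fold change, ErbB4 KO over WT, with its SE for the 57 tested genes of the 6 pathway lists, from edgeR's fit over all genes. Values run from -0.14 to 0.44, and Adcy1 has the largest.

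The genes around each member were examined because Gpr37l1 shares chromosome 1 with Erbb4, at a distance of 67.9 Mb. Within 1 Mb of the start of Gpr37l1, 24 genes were tested, and 7 had an unadjusted p under 0.05 (29.2%, beside 5.53% of all tested genes), 1 higher and 6 lower in ErbB4 KO libraries. None was called at an adjusted p under 0.05 by edgeR or limma-voom, and 3 were called by DESeq2, which called 23 among all genes, namely Adora1, Ube2t and Shisa4. Adora1, the adenosine A1 receptor, gave 0.34 (SE 0.07) on the log2 scale. Lower values were those of Ube2t (-0.75, SE 0.17), a ubiquitin-conjugating enzyme of DNA repair, Shisa4 (-0.51, SE 0.10), Csrp1 (-0.56, SE 0.14), Lmod1 (-1.31, SE 0.33), Rnpep (-0.26, SE 0.08) and Klhl12 (-0.17, SE 0.06). Without WT replicate 1 these were, in the same order, -0.62, -0.48, -0.45, -1.50, -0.19 and -0.15, and Adora1 was at 0.31. These genes share a region and are not independent of each other. Around Psap, 17 genes were tested and 0 had an unadjusted p under 0.05 in edgeR's test, with a median log2 fold change of 0.02. Around Gpr37 the only tested gene was Pot1a, a telomere-binding gene, with 0.08 (SE 0.07).

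**Figure D5:**
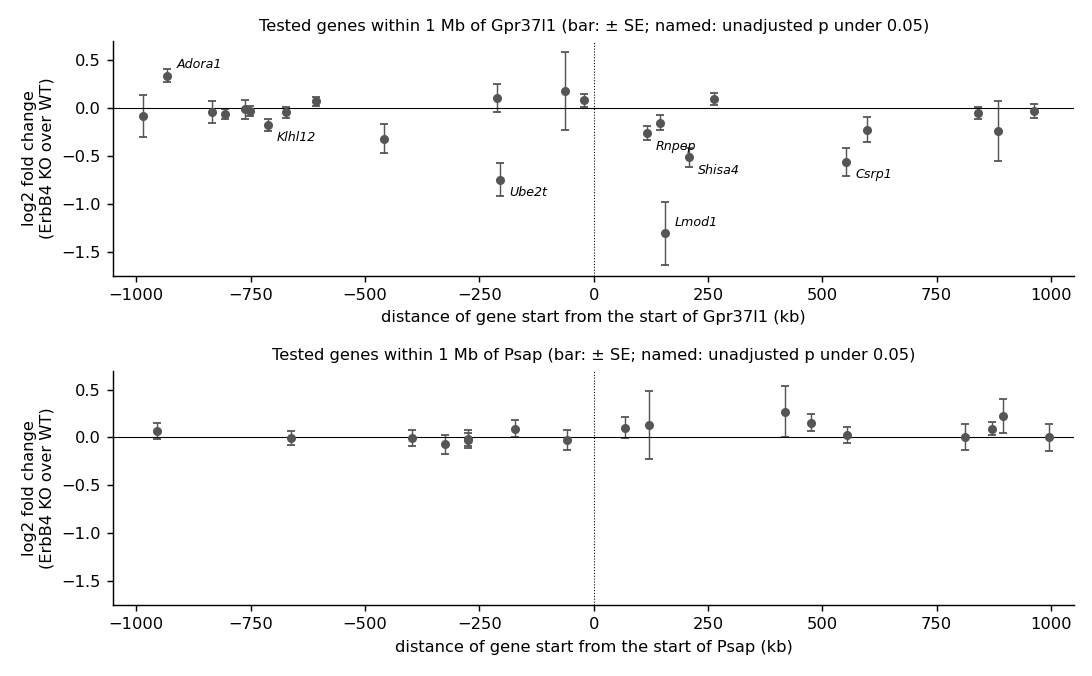
Log2 fold change, ErbB4 KO over WT, with its SE for tested genes by the distance of their start from that of Gpr37l1 (above, 24 genes) or Psap (below, 17 genes); named genes have an unadjusted p under 0.05. All 7 of these lie near Gpr37l1, 6 of them below 0.

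With each genotype mean removed from log2 CPM, Pearson's r over the 8 libraries was 0.07 between Gpr37 and Gpr37l1 (Spearman's rho 0), -0.06 between Gpr37 and Psap (rho 0.21) and 0.59 between Gpr37l1 and Psap (rho 0.57), given as a description over few points. Searched in the same way among 11331 genes with a mean of at least 5 CPM, the genes most like Gpr37 were Klhl26 (r = 0.98, rho 0.88), Dgkz, a diacylglycerol kinase (r = 0.96, rho 0.83), and Fam129c (r = 0.95, rho 1). Those most like Psap were Sqle, the squalene epoxidase of cholesterol synthesis (r = 0.99, rho 1), Rab35, a small GTPase of endosomal traffic (r = 0.99, rho 0.93), and Wdr1, an actin-disassembly factor (r = 0.98, rho 0.98). For Gpr37l1 they were Rps6kc1 (r = 0.98, rho 0.98), Tmem67 (r = 0.97, rho 0.93) and Lmbr1l (r = 0.95, rho 0.83), which rest on its 2 to 8 reads per library. These are the highest of many correlations over few libraries, and all genes of a library share its depth and composition.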

How the data were processed

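RNA from 8 cortices was sequenced as non-strand-specific polyA libraries with single-end reads of 50 nucleotides. Alignment to mm9 used HISAT and counting used HTSeq-count. Their versions, annotation and counting mode are not given in the sources used here. The deposited files hold raw counts per gene symbol. A deposited DESeq2 table with the authors' own fold changes and p-values was not used.

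Groups and replicate numbers came from the labels, which name no litters, so p-values measure the spread between these samples. Counts of all 12 pairs within groups differed by more than sampling noise (chi-square per degree of freedom 6.25 to 48.6). Genes kept by filterByExpr (minimum count 10, minimum total 15) were fitted with edgeR 4.0.16 in R 4.3.3 (TMM, glmQLFit, glmQLFTest, prior count 2), with Benjamini-Hochberg adjustment over 14696 genes and a threshold of 0.05. Of the members, 2 of 3 passed the filter. The interval of the ratio of Gpr37l1 is exact binomial (Clopper-Pearson) at 95%. Positions, exon lengths and windows came from GENCODE vM1 and the NCBIM37 genome by symbol, and RefSeq starts were placed in NCBIM37 by matching their promoter sequence.

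The members, lists and tests were chosen with earlier results of these data known. Named genes are the members, Erbb4, Xist, listed pathway genes, the gene of smallest p in each direction of each pathway list, neighbours within 1 Mb at an unadjusted p under 0.05, the 3 genes most like each member, and the extremes of the marker lists. The oligodendrocyte genes, Pax6, Gfap, S100b, Neurod6, Tbr1, Pot1a, Pdgfrb, Hba-x and Psapl1 were named after their values were seen. Alternatives were DESeq2 1.42.0, voom in limma 3.58.1, RLE or upper-quartile scaling, filtering at 50 mean counts or not at all, a prior count of 0.5, Xist as a covariate, a replicate block, a window of 5 Mb and leaving out each library. Some listed genes are not reported here and were left out of the lists and their counts. The comparison with WT replicate 4 alone was chosen after seeing the data. The fit was tested on simulated data.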

Additional observations from a re-analysis of the deposited data

Results flagged for a closer look

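Of 86 groups of 4 libraries checked (43 genes named in the text, each genotype), 4 had a highest or lowest library far from the rest, and about 1 in 20 is flagged by chance. Ttr stood at 572 CPM in ErbB4 KO replicate 3. Lrp6 was lowest in WT replicate 1, at 85.5 CPM, and Rnpep was highest in that library, at 76.4 CPM. Gm2a was highest in ErbB4 KO replicate 2, at 26.7 CPM. None of the 3 members was flagged.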

How the results depend on the processing

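The log2 fold change of Gpr37 kept its direction in all 18 alternatives, moved by less than the replicate SD in 16 of them, and was 0.40 with Xist as a covariate and 0.39 against WT replicate 4 alone, a fit in which only the ErbB4 KO libraries give the spread. With each library left out it ranged from 0.59 to 0.75. That of Psap ranged from -0.015 to 0.047 with libraries left out, and its adjusted p was never below 0.864. That of Gpr37l1 was -0.24 against WT replicate 4 alone and ranged from -0.23 to 0.19 with libraries left out, and limma-voom, the stricter filter and the Xist covariate gave it no value because it lies below their filters. The number of genes called among all genes was 4. It was 23 with DESeq2, 1 with RLE or upper-quartile normalization, 1 with Xist as a covariate, and 1 to 13 with libraries left out, highest without WT replicate 4. Genes called near the members were 3 with DESeq2 and 0 in the other 17 alternatives, and pathway genes called were 0 in all 17 run. The cause of these differences was not tested. With the replicate block, 1 gene was called, the log2 fold changes of Gpr37 and Psap were 0.66 and 0.01, and that of Gpr37l1 was 0.03. Deviations of same-numbered libraries correlated at 0.0236 to 0.135, and 2 of 4 WT libraries correlated best with their own number. The labels do not say what same-numbered samples share, and so few libraries cannot settle whether they are paired. Depth limits Gpr37l1, with 2 to 8 reads per library, and not Psap.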
